A study of Mus musculus with 4 samples.

Results

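The genes described here are the cadherins and protocadherins of the adult dentate gyrus lineage, taken as every row of the deposited expression table whose symbol begins with Cdh or Pcdh. They are 26 of 13353 genes, and they held 395073 UMIs (unique molecular identifiers, each standing for 1 captured RNA molecule), or 0.430% of all UMIs counted. The data are single-nucleus RNA sequencing of 14367 nuclei sorted from the dentate gyrus of mice that carry an inducible Cre recombinase and the CAG floxStop-Sun1/sfGFP reporter of the nuclear envelope, of both sexes on a C57BL/6J background, aged 6 to 8 weeks and treated with tamoxifen. The sorted nuclei carry the reporter because the recombinase was active in them or in the cells they descend from. Each of the 4 libraries is a pool of mice killed 1, 2, 4 or 8 weeks after induction (w1, w2, w4 and w8), and all mice shared the alleles and the tamoxifen. The authors grouped the nuclei in clusters that follow the path from stem cell to neuron: radial glia-like cells (RGL), neural progenitor cells (NPC), neuroblasts (NB1 and NB2), immature granule cells (GCimm1 and GCimm2), young granule cells (GCyoung) and mature granule cells (GCmat1 and GCmat2). Astrocytes (Astro), pericytes (Peri), oligodendrocytes (Oligo) and oligodendrocyte precursor cells (OPC) lie beside this path.

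Cadherins are calcium-dependent adhesion proteins of the cell surface. Classical cadherins, of type I and type II, bind like molecules on the neighbouring cell and hold on to actin through catenins, and in the brain they take part in the sorting of cells, the growth of axons and dendrites and the matching of synaptic partners. Protocadherins share the extracellular repeats but not the catenin-binding tail. The non-clustered delta protocadherins signal to the cytoskeleton through tails of their own, and the clustered ones, from gene arrays with many alternative starting exons, let a neuron tell its own branches from those of others.

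Of the members, 1 was a type I cadherin (Cdh4), 11 were of type II, 4 were other cadherins (Cdh13, Cdh23, Cdhr1 and Cdhr3), 8 were delta protocadherins, 1 was another non-clustered protocadherin (Pcdh15) and 1 came from the clustered arrays (Pcdha1). Their genes are long, with a median span of 149 kb in the annotation against 23.5 kb over 17637 protein-coding genes with a UMI. A span above 100 kb was found for 17 of the 26 members and for 13.8% of those protein-coding genes. As reads from introns were counted, a longer gene may give more UMIs at the same expression. CPM values of different genes are therefore not directly comparable. Values per 100 kb of annotated span are a rough scaling only, and whether UMIs grow with span was not tested. Within the span of 11 members the annotation places another gene on the same strand, and the use of strand in counting is not given in the sources used here. Of the members, 20 overlap a gene on the opposite strand.

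The rule leaves out 73 other features whose symbols begin in the same way, since the authors kept genes detected in more than 1% and fewer than 80% of nuclei. Cdh2, which encodes N-cadherin, and the delta protocadherin Pcdh9 exceeded the upper limit, with a UMI in 82.9% and 81.1% of nuclei. Features of the clustered arrays made up 58 of the 73, and all 58 had 0 UMIs. As all 58 also overlap another gene on their strand, and a read that fits more than 1 gene may go uncounted, these zeros say nothing of their expression. Pcdha1 itself had 185 UMIs and shares its span with 19 genes of the same strand, and it was too low to be tested.

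Promoter sequences are shown for Cdh8, the member with the most UMIs, and for Cdh9, Pcdh19 and Pcdh20, 3 members whose profiles over the trajectory clusters correlated closely (below). They come from RefSeq on GRCm38.p6, cover the bases before the transcription start, read 5′ to 3′ on the strand of the gene, and carry every CG pair in capitals. For Cdh8 (chr8:99416472-99416721, minus strand), Pcdh19 (chrX:133688994-133689243, minus strand) and Pcdh20 (chr14:88471397-88471646, minus strand) they hold 250 bases. For Cdh9 (chr15:16728665-16728755, plus strand) they stop after 91 bases, where the annotated gene begins.
Cdh8: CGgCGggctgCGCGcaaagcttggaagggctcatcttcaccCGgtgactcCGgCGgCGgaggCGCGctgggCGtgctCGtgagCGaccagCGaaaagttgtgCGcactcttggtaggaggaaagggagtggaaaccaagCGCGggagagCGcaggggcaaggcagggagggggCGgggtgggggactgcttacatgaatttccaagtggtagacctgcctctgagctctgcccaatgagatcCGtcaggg
Cdh9: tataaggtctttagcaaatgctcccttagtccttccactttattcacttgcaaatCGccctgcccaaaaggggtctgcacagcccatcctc
Pcdh19: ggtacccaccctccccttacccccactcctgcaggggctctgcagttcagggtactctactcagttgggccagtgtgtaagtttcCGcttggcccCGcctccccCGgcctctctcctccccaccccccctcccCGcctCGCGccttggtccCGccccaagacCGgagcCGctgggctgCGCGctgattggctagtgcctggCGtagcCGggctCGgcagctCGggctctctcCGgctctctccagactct
Pcdh20: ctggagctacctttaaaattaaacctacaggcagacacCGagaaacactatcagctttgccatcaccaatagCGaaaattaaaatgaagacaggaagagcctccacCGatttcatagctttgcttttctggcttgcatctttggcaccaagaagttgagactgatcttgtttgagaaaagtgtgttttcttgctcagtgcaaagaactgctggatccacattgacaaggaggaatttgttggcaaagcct

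The windows differ in their CG pairs. Cdh8 had 20 CG pairs in 250 bases, Pcdh19 16, Cdh9 6 and Pcdh20 3, and the median of the 32851 promoters in the table was 6. Of the CG pairs of Cdh9, 1 lies in the 91 bases printed and the others past the annotated gene start. Promoters with fewer pairs than Cdh8 made up 82.1% of the table, and those with fewer than Pcdh20 29.0%. Of the 26 members, 19 had an entry and 15 of these began within 500 bases of the annotated gene start. Among the 15, the E-box CAGATG (either strand) was found in Cdh24 alone, against 14.4% of all promoters, and the E-box CAGCTG in Cdh9 alone, against 13%. The site in Cdh9 lies past the annotated gene start and is not in the bases printed. The Sox motif ACAAAG (either strand) was found in Cdh6 and Pcdh8, against 16.5% of all promoters. These are matches of letters in the windows searched and describe no binding.

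The libraries held between 2867 (w1) and 4243 (w2) nuclei and between 13227971 (w1) and 28595331 (w8) UMIs, and 22 barcode sequences occurred in more than 1 library. Levels are given as CPM, the UMIs of a gene per 1e6 UMIs of the same nuclei, pooled over libraries unless libraries are named, and their exact Poisson intervals (95%) cover counting error only. Values are given by library for clusters with at least 10 nuclei in it. Some of these sums are small, as in GCmat1 of w1 (17 nuclei), NB2 of w4 (18), NPC of w4 (22) and GCimm2 of w8 (28). Median depth ran from 4057.5 UMIs per nucleus in NB1 to 8138 in GCmat1. Clusters were compared over library sums, with cluster and library as terms of 1 edgeR quasi-likelihood fit of 13513 genes. A gene was called where its fold change reached 1.5 and its adjusted p (Benjamini-Hochberg, over all genes fitted) did not exceed 0.05. Each week is 1 pool, so weeks were not compared by a test. The authors drew the clusters from expression values that include these genes, and the p-values therefore describe distances between clusters that were made to differ. Several deposited names had markers highest there (Eomes and Top2a in NPC, Mog in Oligo, Cspg4 in OPC). Of the markers listed for GCmat2, Sorcs3 stood at 859 CPM there and 723 in OPC, Acvr1c at 138 and 8.89 and Bdnf at 204 and 5.92. The OPC markers Cspg4 and Prkg2 stood at 0 CPM in GCmat2, where 0 UMIs allow up to 1.92 CPM. Markers of neighbouring stages overlapped. Of those listed for immature granule cells, Dcx, Sox11 and Igfbpl1 were highest in NB1 and Camk4 in GCimm2. Rgs6 of neuroblasts was highest in GCimm1, Calb1 and Grin2a of GCyoung in GCmat1, and Ntng1 of mature cells in GCmat2. Icam5 and Tenm1 were highest in GCyoung. For RGL, Thrsp and Hopx were highest in RGL and Sox5 in OPC. Lpar1, a marker of RGL, was higher in Peri (777 CPM) than in RGL (164). Of the 3 endothelial markers, Flt1 stood at 38.3 CPM in NPC and 2.46 in RGL, and Pecam1 at 10.9 and 3.28.

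The summed level of the members was lower in stem and progenitor cells than in any later stage of the path. It was 1652 CPM in RGL (interval 1620 to 1685) and 1387 in NPC (1312 to 1466). It stood at 4231 in NB1, 5680 in NB2, 6312 in GCimm1 and 6071 in GCimm2, then at 3901 in GCyoung, 3560 in GCmat1 and 4053 in GCmat2. Libraries lay close together, with 1543 to 1868 CPM in the 4 RGL sums and 6213 to 6816 in the 3 GCimm1 sums. OPC held the highest sum of any cluster, 11173 CPM (10922 to 11428), and Peri the lowest, 417 (349 to 494). These sums leave out Pcdh9 and Cdh2, which exceeded the upper detection limit. Pcdh9 stood at 4357 CPM in GCmat2, 4148 in GCyoung and 25930.5 in Oligo, and its lowest trajectory level was 391 in NB1. Cdh2 was highest in NPC (695 CPM) and RGL (678) and lowest on the path in GCmat1 (271). The order of clusters given here therefore holds for the members only, and a sum with both genes was not made. Without allowance for gene length, the member with most UMIs changed along the path: Cdh4 gave 50.1% of member UMIs in RGL, Pcdh15 41.4% in NB1 and 39.3% in GCimm1, Cdh8 30.5% in GCyoung and 30.4% in GCmat1, and Cdh9 17.4% in GCmat2. The number of members at 50 CPM or more grew from 5 in RGL and 6 in NPC to 11 in GCmat1 and 12 in GCmat2.

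Every trajectory stage except NB1 held the highest level of some member. Of the 26, 3 were highest in RGL, 3 in NPC, 2 in NB2, 2 in GCimm1, 4 in GCimm2, 3 in GCyoung, 3 in GCmat1 and 6 in GCmat2. The margin was often small, since Cdh4 stood at 829 CPM in NB2 and 828 in RGL, and Cdh9 at 738 in GCyoung and 717 in GCmat1. It was wide for Cdh23, 8.55 times higher in GCmat2 than in the next trajectory cluster, for Cdh24 (6.49 times in NPC, on 16 UMIs), for Pcdh11x (3.64 times), Cdh13 (3.04 times) and Cdh20 (2.36 times in NPC).

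**Figure D1:**
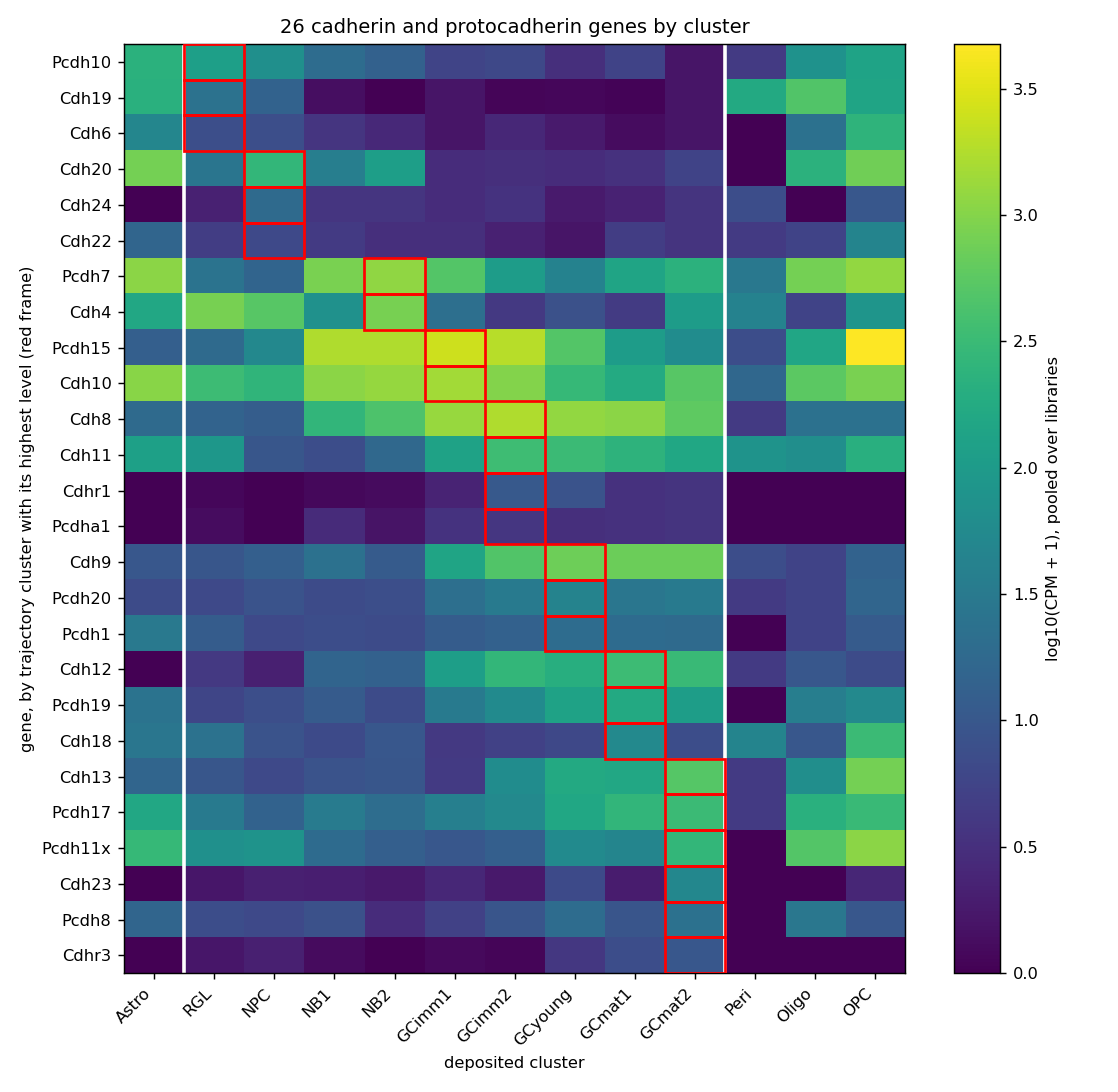
Levels of the 26 members (rows) in the 13 deposited clusters (columns), as log10 of pooled CPM with 1 added, coloured from dark (0) to yellow. Red frames mark the trajectory cluster in which a member was highest, and they step from RGL at the top left to GCmat2, where 6 members had their highest level.

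Of the 26 members, 24 passed the filter on low counts, and the text names those called with at least 50 UMIs in the pair of clusters and in 1 direction in every library that held both. From astrocytes to RGL 1 member was higher and 9 were lower in RGL, where 9.58% of all genes were called (4.77% higher and 4.82% lower). From RGL to NPC 2 were higher and 6 lower (all genes 29.5%, 13.7% higher and 15.9% lower). From NPC to NB1 6 were higher and 6 lower (29.3%, 14.7% and 14.6%). From NB1 to NB2 3 were higher and 0 lower (2.94%, 1.81% and 1.13%), and at an unadjusted p under 0.05 in edgeR 4 were higher and 1 was lower. From NB1 to GCimm1 8 were higher and 4 lower (12.5%, 7.76% and 4.75%). Rises outnumbered falls at the next steps too, with 7 higher and 2 lower from GCimm1 to GCimm2 (9.43%, 6.52% and 2.91%) and 6 and 3 from GCimm2 to GCyoung (18.9%, 9.27% and 9.62%). From GCyoung to GCmat1 5 were higher and 4 lower (3.85%, 1.60% and 2.25%), and from GCmat1 to GCmat2 7 and 4 (7.30%, 3.01% and 4.28%). Between the ends of the path, RGL and GCmat1, 13 were higher and 5 lower in GCmat1 (49.5%, 24.6% and 24.9%). The share of members called lay near that of all genes from RGL to NPC (33.3% of 24) and above it from GCyoung to GCmat1 (37.5%) and from GCmat1 to GCmat2 (45.8%). These last 2 counts changed when single libraries were left out. The 9 members called from GCyoung to GCmat1 became 4 without w4 and 4 without w8, and 2 of the 9 were called in each of the 12 refits described in the closing section. The 11 called from GCmat1 to GCmat2 became 6 without w4 and 6 without w8, and 4 of the 11 were called in each refit. Without w4 or w8 a smaller share of all genes was called in both comparisons too. From RGL to NPC the 8 became 5 without w1, where 20.2% of all genes were called.

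Median changes were larger in size for the members than for all genes in most comparisons. Scaling centres the changes of all genes, so this difference is partly built in. The median of the members was -0.85 from astrocytes to RGL and 0.33 from NPC to NB1. From RGL to GCmat1 the median log2 change was 1.72 over the 24 members and 0.00 over all genes, and from RGL to NPC it was -0.62 and -0.05. The scaling moved the median of all genes by more than 0.1 in several comparisons. From astrocytes to RGL the TMM factors used here gave 0.27, RLE factors gave 0.07 and DESeq2 gave -0.00, with 1 member higher and 9 lower under TMM and RLE and 1 and 10 under DESeq2. From RGL to GCmat1 it was 0.00, -0.16 and -0.16, and from GCmat1 to GCmat2 -0.14, -0.03 and -0.01. In the last comparison the 7 higher and 4 lower members became 7 and 2 with RLE and 5 and 1 with DESeq2. Of all genes, 7.29% were called with RLE and 5.02% with DESeq2 there.

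Over the 6 steps from RGL to GCmat1 that pass through NPC, NB1, GCimm1, GCimm2 and GCyoung, 21 of the 24 tested members were called at least once and 11 both rose and fell. Of all 13513 genes, 54.5% were called at least once over these steps and 19.9% both rose and fell. Cdh4 and Cdh10 were called at 5 of the 6 steps. Pcdh1, Pcdh8 and Cdh22 were called at none, and their highest trajectory levels were low (18.8, 22.4 and 5.47 CPM).

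**Figure D2:**
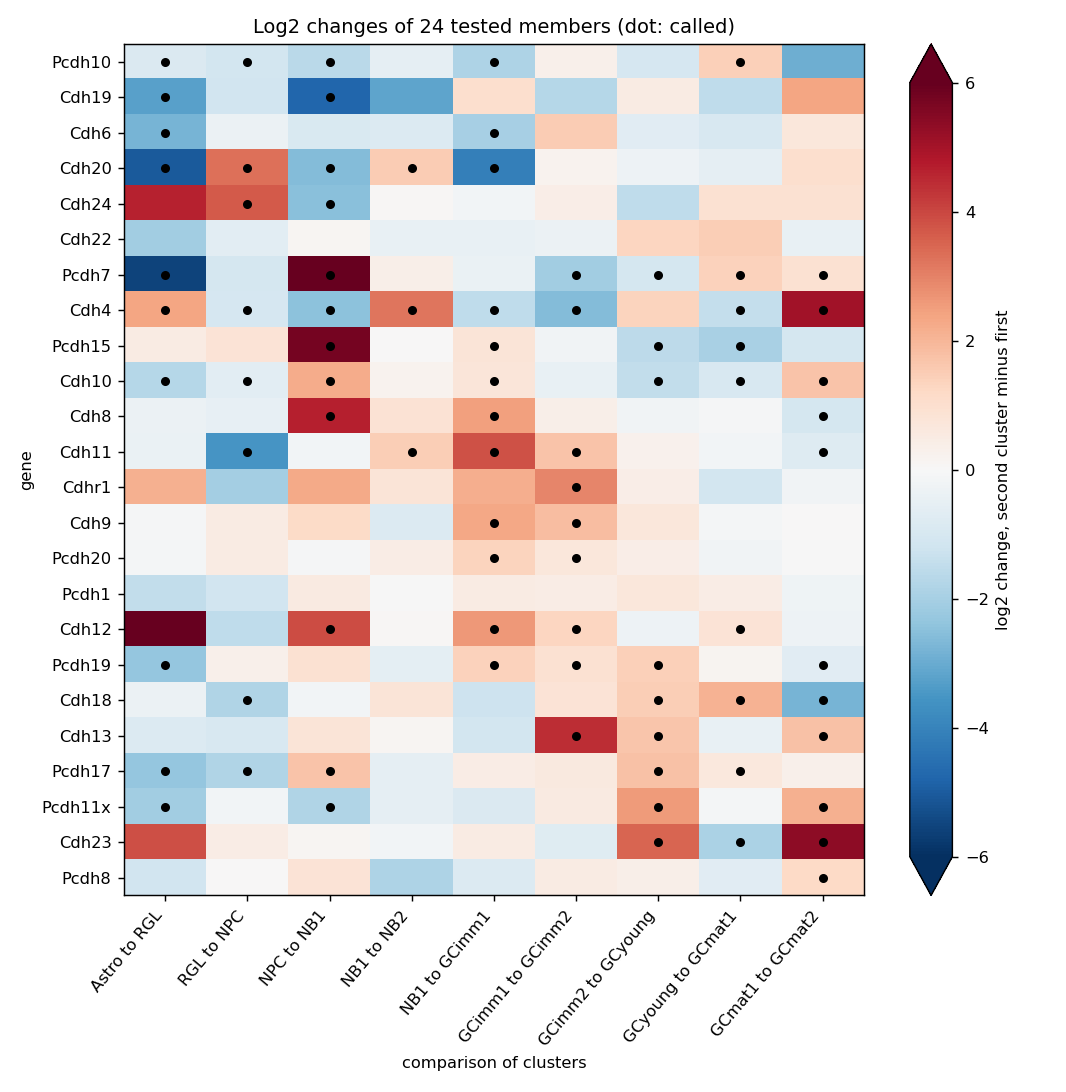
Log2 changes of the 24 tested members (rows) in 9 comparisons (columns), second cluster minus first, from blue (lower) to red (higher), with a dot where the change was called. The colours from astrocytes to RGL for Cdh12, Cdh23, Cdh24 and Cdhr1 rest on 0 UMIs in astrocytes and are not called, and 6 dots of each direction stand in the column from NPC to NB1.

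Cdh4, the type I member, encodes R-cadherin and lies on chromosome 2 of GRCm38 from 179442431 to 179899373. It was high in stem cells, fell to a low level in NB1, returned in NB2 and was close to 0 in most granule cells. Its levels in RGL, from w1 to w8, were 963, 696, 772 and 969 CPM, and in NPC 597, 462 and 393 in w1, w2 and w4. In NB1 they were 68.4, 75.8 and 87.4, so that every NPC library lay above every NB1 library. NB2 held 957 CPM in w1, 295 in w2 and 1255 in w4 (18 nuclei), again above every NB1 library but spread over a wide range. The log2 change from NB1 to NB2 was 3.22 (SE 0.26, adjusted p = 1.4e-13, edgeR), and 3.81 without w2. GCimm1 had 44.3, 20.7 and 12.3 CPM in w1, w2 and w4, and GCmat1 had 0, 1.11 and 3.71 in w1, w4 and w8. In GCmat2 Cdh4 stood at 95.0 CPM in w4 and 111 in w8, a log2 change from GCmat1 of 5.03 (SE 0.40, adjusted p = 3.2e-14, edgeR), and 6.36 without w8. Its log2 changes were -1.0 from RGL to NPC (not called by DESeq2), -2.46 from NPC to NB1, -1.54 from NB1 to GCimm1 and -2.59 from GCimm1 to GCimm2 (-4.46 without w2), and from RGL to GCmat1 it was -7.69 (SE 0.36), or -8.93 without w8. The change from GCyoung to GCmat1 (-1.44) was called in 5 of the 12 refits, not without w4, without w8 or by DESeq2. It was 2.36 higher in RGL than in astrocytes on the log2 scale (SE 0.32, adjusted p = 1.4e-07, edgeR), where the 3 libraries had 119 to 178 CPM.

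Markers named for other cells were read beside the Cdh4 level of NB2. Of the 3 genes listed for mossy and pyramidal cells, Calb2, which also marks neuroblasts, stood at 391 CPM in NB2 and 152 in NB1, Grik4 at 775 and 573, and Csf2rb2 at 0 and 0.0918. Their part in the Cdh4 level was not tested.

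Cdh20, a type II cadherin, was highest in NPC among the trajectory clusters. It lies on chromosome 1 from 104768529 to 104995481. Its levels in RGL were 19.1, 28.2, 27.2 and 47.8 CPM in w1, w2, w4 and w8, and in NPC 275, 209 and 524 in w1, w2 and w4, with no overlap. It fell again in NB1 (38.0, 30.6 and 76.2 CPM), was higher in NB2 (119, 93.0 and 128) and was near 0 in GCimm1 (4.58, 1.83 and 1.23). The log2 changes were 3.29 from RGL to NPC (SE 0.23, adjusted p = 8.5e-17, edgeR), -2.59 from NPC to NB1, 1.54 from NB1 to NB2 and -4.08 from NB1 to GCimm1. All 4 were called in each of the 12 refits. Limma on mean log2 expression did not call those from NB1 to NB2 and from NB1 to GCimm1. Cdh4 and Cdh20 were the 2 members called higher in NB2 than in NB1 with that direction in every library. From RGL to GCmat1 its log2 change was -4.01, -3.07 with no library term and -9.11 without w8, as w1 and w4 held 0 UMIs in GCmat1. Outside the path Cdh20 stood at 806 CPM in astrocytes and 766 in OPC, and RGL lay below astrocytes by a log2 change of -5.06 (SE 0.23). Beside the rise in NPC, the endothelial markers Flt1 and Pecam1 were higher there than in RGL (values above). The other of the 3, Cldn5, stood at 1.09 CPM in NPC and 0.328 in RGL. These levels are too low to rank, as 0 UMIs in NPC allow up to 3.28 CPM. The part of these markers was not tested.

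Cdh10, a type II cadherin of hippocampal circuits, was detected in every cluster and was called at more steps than any other type II member. Its pooled level was 1062 CPM in astrocytes, 329 in RGL, 257 in NPC, 1084 in NB1, 1491 in GCimm1, 981 in GCimm2, 293 in GCyoung and 176 in GCmat1. NPC libraries held 202, 305 and 341 CPM and NB1 libraries 1107, 1067 and 919, a log2 change of 2.23 (SE 0.24, adjusted p = 7.1e-11, edgeR). From GCimm2 to GCyoung the log2 change was -1.46 (SE 0.25), with 1090 and 1232 CPM in w4 and w8 of GCimm2 and 288 and 355 in those of GCyoung. In GCmat2 it stood at 610 and 490 CPM in w4 and w8, above the 164 and 179 of GCmat1, a log2 change of 1.70 (SE 0.24). The change from NB1 to GCimm1 (0.73) was not called without w2 or without w4, and that from GCyoung to GCmat1 (-0.98) not without w4, without w8 or with nuclei thinned to 1 depth. From RGL to NPC (-0.62) the libraries did not share a direction, and the call was lost without w1, w2 or w4 and by DESeq2. Per 100 kb of annotated span, the GCimm1 level of Cdh10 was 764 CPM, above that of Cdh8 (332) and Pcdh15 (160). The promoter entry of Pcdh15 lies 722525 bases from its annotated gene start, so its annotated span may overstate the length transcribed.

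Cdh8, a type II cadherin of forebrain circuits on chromosome 8 (99024471 to 99416471), rose as neurons formed and stayed high. Its levels were 1.3, 16.4, 29.4 and 22.3 CPM in the 4 RGL libraries, and 4.01, 9.24 and 65.5 in NPC. They were 250, 296 and 208 in NB1 and 1214, 1281 and 1465 in GCimm1, without overlap between these 3 stages. GCimm2 held 1738, 1751 and 1725 CPM in w2, w4 and w8, all above GCimm1. The log2 change from NPC to NB1 was 4.67 (SE 0.50, adjusted p = 4.5e-11, edgeR), 3.95 without w1 and 5.71 without w4, and that from NB1 to GCimm1 was 2.45 (SE 0.26). GCyoung (1177 and 1304) and GCmat1 (929, 1285 and 1056) overlapped. GCmat2 was lower at 579 and 592, a log2 change of -1.04 (SE 0.30, adjusted p = 0.017, edgeR). That change was called in 7 of the 12 refits, not without w4, without w8 or by DESeq2.

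Cdh9 and Cdh12, both of type II and both on chromosome 15, came on later than Cdh8. Cdh9, which takes part in the mossy fibre synapse formed by granule cells, had 19.3, 25.7 and 33.6 CPM in NB1, 58.0, 138 and 195 in GCimm1 and 459, 475 and 739 in GCimm2. Each stage lay above the one before in every library. It reached 728 and 837 CPM in GCyoung and 551, 489 and 751 in GCmat1. The log2 changes were 2.30 from NB1 to GCimm1 (SE 0.28, adjusted p = 5.6e-09, edgeR) and 1.83 from GCimm1 to GCimm2 (SE 0.25), and over the whole path from RGL it was 6.35, or 8.03 without w4 and 5.74 with thinned nuclei. In RGL the w4 library held 28.0 CPM and the other 3 libraries 1.74 to 4.70, and in NPC w4 held 78.6 and the others 2.00 and 12.3.

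Cdh12 followed with 10.2, 20.3 and 20.2 CPM in NB1, 32.1, 113 and 150 in GCimm1 and 281, 244 and 346 in GCimm2. GCmat1 held 250, 301 and 337. The log2 change was 2.59 from NB1 to GCimm1 (SE 0.23, adjusted p = 9.4e-13, edgeR) and 1.31 from GCimm1 to GCimm2 (SE 0.19). From NPC to NB1 it was called higher, on 1 UMI in NPC against 157 in NB1, a ratio of levels of 13.2 with a counting interval from 2.33 to 523, and it was not called with nuclei thinned to 1 depth. The change from GCyoung to GCmat1 (0.84) was not called without w8, with no library term or by DESeq2. In astrocytes Cdh12 had 0 UMIs, which allows up to 8.95 CPM, so no change from astrocytes is given.

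Cdh11, known as OB-cadherin, and Cdh18 fell from RGL to NPC and rose again at different later stages. Cdh11 was highest in GCimm2 (344 CPM) and Cdh18 in GCmat1 (52.7 CPM). Cdh11 had 78.5 to 118 CPM in the 4 RGL libraries, 12, 3.08 and 13.1 in NPC, 4.56, 8.32 and 15.7 in NB1, 24.4, 140 and 111 in GCimm1 and 369, 293 and 320 in GCimm2. The log2 changes were -3.54 from RGL to NPC (SE 0.51, adjusted p = 1.1e-07, edgeR; -4.62 without w1 and -4.39 with thinned nuclei), 3.81 from NB1 to GCimm1 (SE 0.29) and 1.73 from GCimm1 to GCimm2 (SE 0.21). RGL and the immature granule cells thus held more Cdh11 than NPC and NB1 in every library. Its change from NB1 to NB2 (1.48) went the other way in 1 of 3 libraries. It was called in 7 of the 12 refits, not without w1, without w2 or by DESeq2. The change from GCmat1 to GCmat2 (-0.79) was called in 6 of the 12, not without w4, without w8 or by DESeq2. Cdh18 stood at 23.0 CPM in RGL and 3.02 in GCimm1. It was higher in GCmat1, where w8 held 57.9 CPM, w4 14.1 and w1 19.2. GCyoung had 5.38 and 5.58. The log2 change from GCyoung to GCmat1 was 2.10 (SE 0.31, adjusted p = 3.0e-06, edgeR), 2.77 with no library term, 3.44 without w4 and 1.36, not called, without w8. GCmat2 held 0 and 9.03 CPM in w4 and w8 (log2 change -2.79, not called without w8 and -4.45 with thinned nuclei). Its fall from RGL to NPC (-1.82) was not called without w1, with no library term or by DESeq2 and was -8.09 without w2. Its rise from GCimm2 to GCyoung (1.46) was called in 7 of the 12 refits, not without w2 or by DESeq2. The rise was 0.74 with no library term and 0.35 without w4, neither of them called.

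Of the remaining type II members, Cdh19, Cdh6 and Cdh22 were higher in Oligo or OPC than in any trajectory cluster. Cdh19, a cadherin of glial cells, stood at 473 CPM in Oligo (interval 387 to 574), 212 in astrocytes, 171 in Peri and 141 in OPC, and at 23.3 in RGL. RGL lay below astrocytes by a log2 change of -3.25 (SE 0.31), and RGL had 142 UMIs where GCmat1 had 3, a ratio of levels of 226 with a counting interval from 75.9 to 1111. Cdh6 stood at 244 CPM in OPC and 6.72 in RGL, and Cdh22 at 44.4 in OPC. Cdh24 was highest in NPC, at 17.5 CPM on 16 UMIs.

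**Figure D3:**
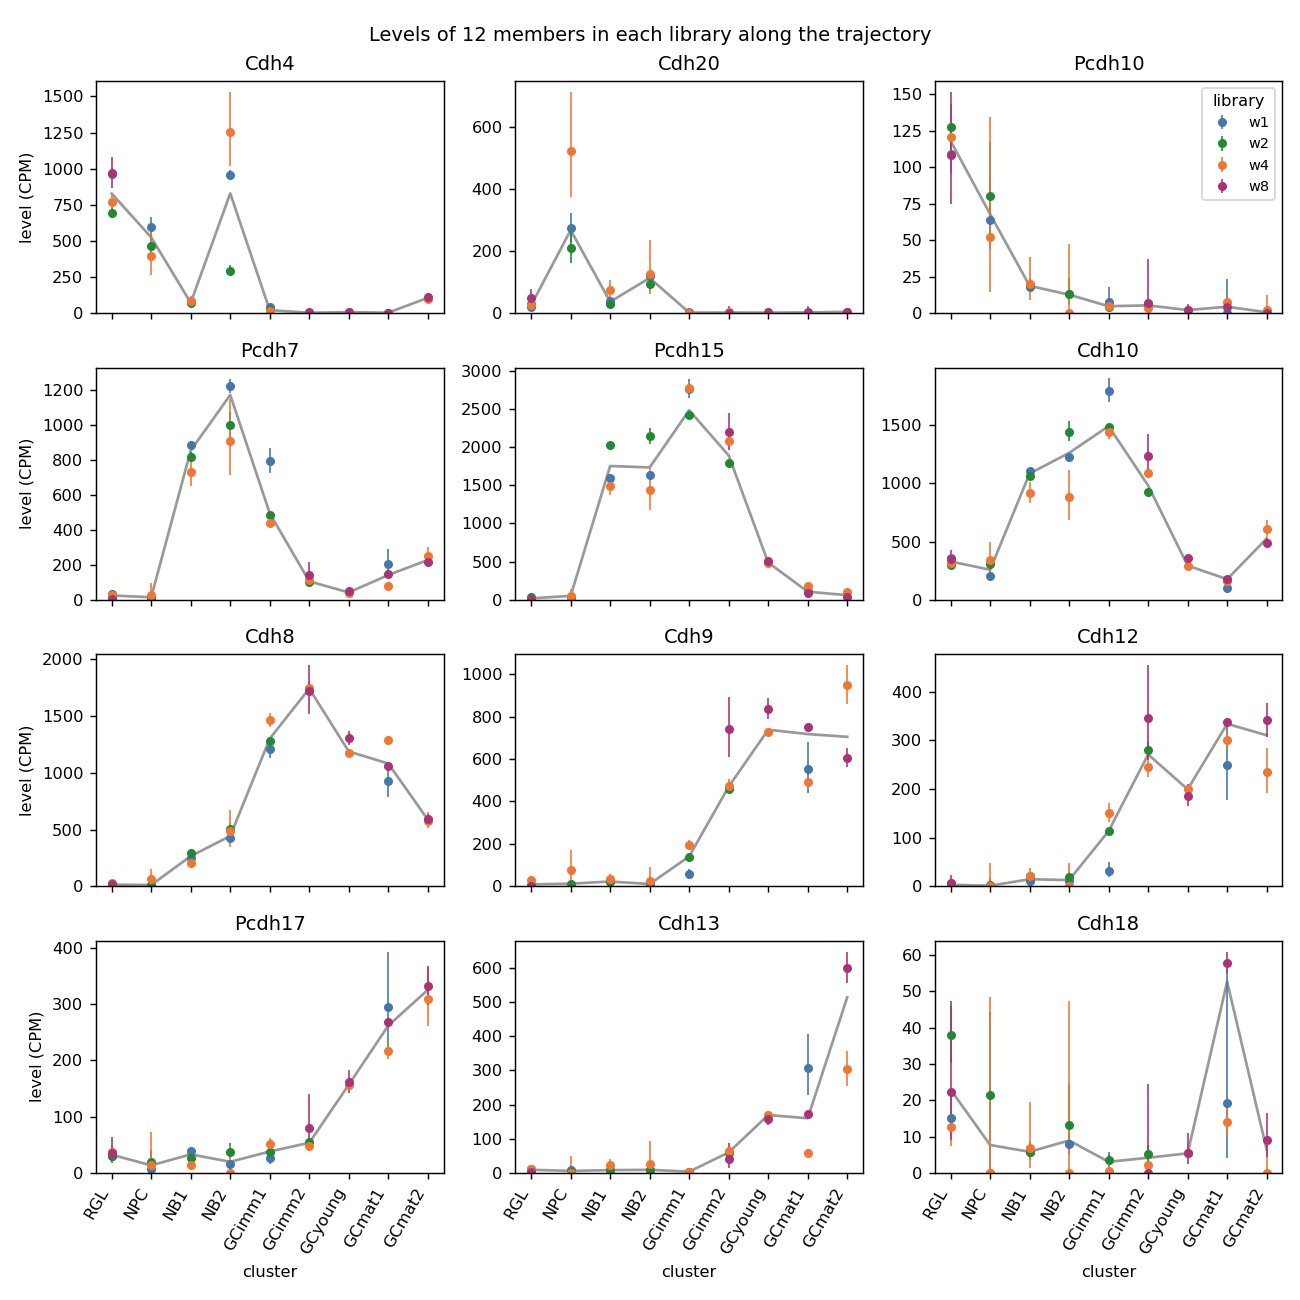
Levels in CPM (vertical axes, from 0) of 12 members in the 9 trajectory clusters, with a point per library of at least 10 nuclei (colours), exact Poisson 95% intervals as bars and the pooled level as a grey line. Cdh4 shows separate maxima in RGL and NB2, Cdh20 a peak in NPC, Pcdh15 and Cdh10 maxima in GCimm1, and Pcdh17 its highest level in GCmat2.

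Among the other cadherins, Cdh13 rose late. It encodes T-cadherin, which is anchored in the membrane by lipid and has no tail, and spans 1041 kb of chromosome 8 (118283733 to 119324921). GCimm1 held 1.53, 3.56 and 1.85 CPM in w1, w2 and w4, GCimm2 58.1, 64.7 and 40.0 in w2, w4 and w8, and GCyoung 170 and 159 in w4 and w8, with no overlap between these stages. The log2 changes were 4.43 from GCimm1 to GCimm2 (SE 0.37, adjusted p = 2.7e-13, edgeR; 5.28 without w2) and 1.67 from GCimm2 to GCyoung (SE 0.28; 2.31 without w4). GCmat1 was uneven, with 307 CPM in w1 (48 UMIs in 17 nuclei), 57.4 in w4 (403 nuclei) and 172 in w8 (2927 nuclei). GCmat2 stood above the same libraries at 303 in w4 and 600 in w8, a log2 change of 1.76 (SE 0.25, adjusted p = 4.0e-07, edgeR). The changes from GCimm2 to GCyoung and from GCmat1 to GCmat2 were not called by DESeq2.

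Cdh23, which joins with Pcdh15 in the tip links of inner ear hair cells, had 251 UMIs in all. GCmat2 held 97.3 CPM in w4 and 29.8 in w8, while GCmat1 had 1.94 and 0.790. The log2 change was 5.35 (SE 0.43, adjusted p = 5.6e-14, edgeR), called in all 12 refits but not by limma on mean log2 expression. GCyoung lay between GCmat1 and GCmat2, at 5.76 and 6.27. The change from GCimm2 to GCyoung (3.51) was not called without w4, was 4.17 without w2 and was 2.7 with nuclei thinned to 1 depth, and that from GCyoung to GCmat1 (-1.90) was not called without w4, without w8, with thinned nuclei or by DESeq2. Pcdh15 stood at 59.6 CPM in GCmat2 and 105 in GCmat1. Cdhr1, a cadherin of photoreceptors, was highest in GCimm2 at 9.49 CPM and rose from GCimm1 by 2.91 on the log2 scale (SE 0.49). The change was called in the 9 refits that tested it. It could not be tested without w2, with thinned nuclei or with sums of at least 5 nuclei.

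Of the delta protocadherins, Pcdh7 (chromosome 5, 57717967 to 58133230) rose with the neuroblasts and fell in the granule cells. The annotation places 14 other genes on its strand within its span. RGL held 18.7, 31.0, 26.5 and 6.37 CPM in w1, w2, w4 and w8, NPC 18, 6.16 and 26.2, and NB1 885, 816 and 728. The log2 change from NPC to NB1 was 6.13 (SE 0.36, adjusted p = 6.6e-20, edgeR), and 7.52 with nuclei thinned to 1 depth. NB2 held 1223, 999 and 910 CPM and GCimm1 794, 485 and 440. The level then fell to 99.8, 114 and 140 in GCimm2 (log2 change -2.09, SE 0.22) and 41.0 and 49.5 in GCyoung (-1.08, not called without w4). It rose again to 76.5 and 149 in w4 and w8 of GCmat1 (log2 change 1.40, SE 0.25, adjusted p = 8.4e-05, edgeR). In GCmat2 it stood at 252 and 217 (0.90, called in 8 of the 12 refits, not without w4 or by DESeq2). Astrocytes, at 1050, 1023 and 1279 CPM, were far above RGL, a log2 change to RGL of -5.57.

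Pcdh17, Pcdh19 and Pcdh20 were higher in GCmat1 than in NB1. Pcdh17, which links axon contacts to the actin machinery, held 26.0, 36.7 and 50.5 CPM in GCimm1, 55.1, 47.5 and 79.9 in GCimm2, 156 and 161 in GCyoung, and 295, 217 and 268 in GCmat1. Its log2 change from GCimm2 to GCyoung was 1.75 (SE 0.23, adjusted p = 2.0e-08, edgeR). The smaller one to GCmat1 (0.65) was called in 7 of the 12 refits, not without w2, w4 or w8 or by DESeq2. Its log2 change was -1.80 from RGL to NPC (not called without w1, -2.51 without w2) and 1.72 from NPC to NB1 (not called without w1 or with nuclei thinned to 1 depth, 2.48 without w2).

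Pcdh19, an X-linked gene in which mutations cause epilepsy, rose at 3 successive steps. Its libraries held 9.43, 13.2 and 2.24 CPM in NB1, 13.7, 30.8 and 40.6 in GCimm1, 58.3, 51.8 and 73.3 in GCimm2 and 128 and 155 in GCyoung. The log2 changes were 1.40, 0.92 (not called without w2 or by DESeq2) and 1.43, and no stage overlapped with the next. GCmat2 was lower than GCmat1 by a log2 change of -0.69, called in 5 of the 12 refits and lost without w2, w4 or w8 and by DESeq2. Pcdh20 rose at the first 2 of these steps, with 7.63, 20.9 and 24.6 CPM in GCimm1, 27.9, 38.8 and 46.6 in GCimm2 and 43.6 and 34.2 in GCyoung. Its log2 change was 1.36 from NB1 to GCimm1 (not called without w2). From GCimm1 to GCimm2 it was 0.69 (called in 7 of the 12 refits, not without w2 or w4 or by DESeq2). From GCimm2 to GCyoung its log2 change was 0.39 and was not called, and GCmat1 held 12.8, 38.3 and 25.7 CPM in w1, w4 and w8.

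Pcdh10 ran the other way. Its RGL libraries held 109, 127, 121 and 108 CPM, those of NPC 64.1, 80.1 and 52.4, those of NB1 18.2, 19.3 and 20.2 and those of GCimm1 7.63, 4.57 and 4.92, with no overlap between any of these stages. The log2 changes were -1.12 (SE 0.23), -1.62 (SE 0.27) and -1.85 (SE 0.27), all called in the 12 refits but not by limma on mean log2 expression. A small return from GCyoung to GCmat1 (1.44, from 2.03 and 2.09 to 7.49 and 4.03 CPM) was not called without w4 or by DESeq2, was 0.28 with thinned nuclei and was -0.00182 by limma on mean log2 expression. Pcdh11x, also X-linked, stood at 75.5 CPM in NPC, 9.07 in GCimm1, 56.6 in GCyoung and 275 in GCmat2. It rose into GCyoung by 2.56 on the log2 scale (SE 0.33, adjusted p = 2.1e-08, edgeR) and from GCmat1, at 68.2 and 43.6 CPM in w4 and w8, to GCmat2, at 159 and 322, by 2.15 (SE 0.25; 2.81 without w4 and 1.23 without w8). The fall from NPC to NB1 (-1.82) was not called without w2 and was -3.10 without w1. Pcdh8, known as arcadlin and induced by neuronal activity, was higher in GCmat2 (30.9 and 19.0 CPM) than in GCmat1 (10.3 and 8.10). The log2 change of 1.2 was not called without w4, without w8, with no library term or with thinned nuclei.

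Pcdh15, the tip link protocadherin, spans 1550 kb of chromosome 10 (73099342 to 74649737). RGL held 7.39, 32.4, 13.3 and 9.56 CPM and NPC 38.1, 30.8 and 52.4. NB1 held 1591, 2030 and 1483, and GCimm1 2766, 2420 and 2778, so every NB1 library lay far above every NPC library. The log2 change from NPC to NB1 was 5.75 (SE 0.37, adjusted p = 2.1e-18, edgeR) and 5.14 with thinned nuclei. That from NB1 to GCimm1 was 0.78, not called without w4, with no library term or by DESeq2. From GCimm2 (1791, 2084 and 2198 CPM) it fell to 481 and 509 in GCyoung and 185 and 93.3 in w4 and w8 of GCmat1, with log2 changes of -1.59 (SE 0.29) and -1.93 (SE 0.28). OPC held 4751 CPM, more than any trajectory stage. In NB1 the OPC markers Cspg4 and Prkg2 stood at 0.275 and 0 CPM, against 348 and 182 in OPC.

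The deposited pseudo-time, a position along the path in arbitrary units, set the members in a finer order. Over bins of 1 unit with at least 20 nuclei, Pcdh10 was highest from 0 to 1, Cdh4 from 2 to 3 (1220 CPM), Cdh20 from 7 to 8, Pcdh7 from 13 to 14 (1266 CPM), Pcdh15 from 14 to 15 (3312 CPM), Cdh10 from 16 to 17 (1599 CPM), Cdh8 and Cdh11 from 21 to 22, Cdh9 from 24 to 25 (831 CPM), and Pcdh17 and Cdh18 from 30 to 31. The NB1 median was 13, the NB2 median 13.7 and the GCimm1 median 16.9. The highest bin of Pcdh7 held both neuroblast medians and that of Cdh10 the GCimm1 median, while that of Pcdh15 lay between. Cdh10 was nearly level there, at 1590 CPM from 14 to 15, 1533 from 15 to 16 and 1599 from 16 to 17, so its peak is not set apart from that of Pcdh15. The bin from 2 to 3 held 57 nuclei. With bins of 2 units Pcdh15 and Cdh10 were both highest from 14 to 16, and 17 of the 26 members kept a highest bin that contains their bin of 1 unit.

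**Figure D4:**
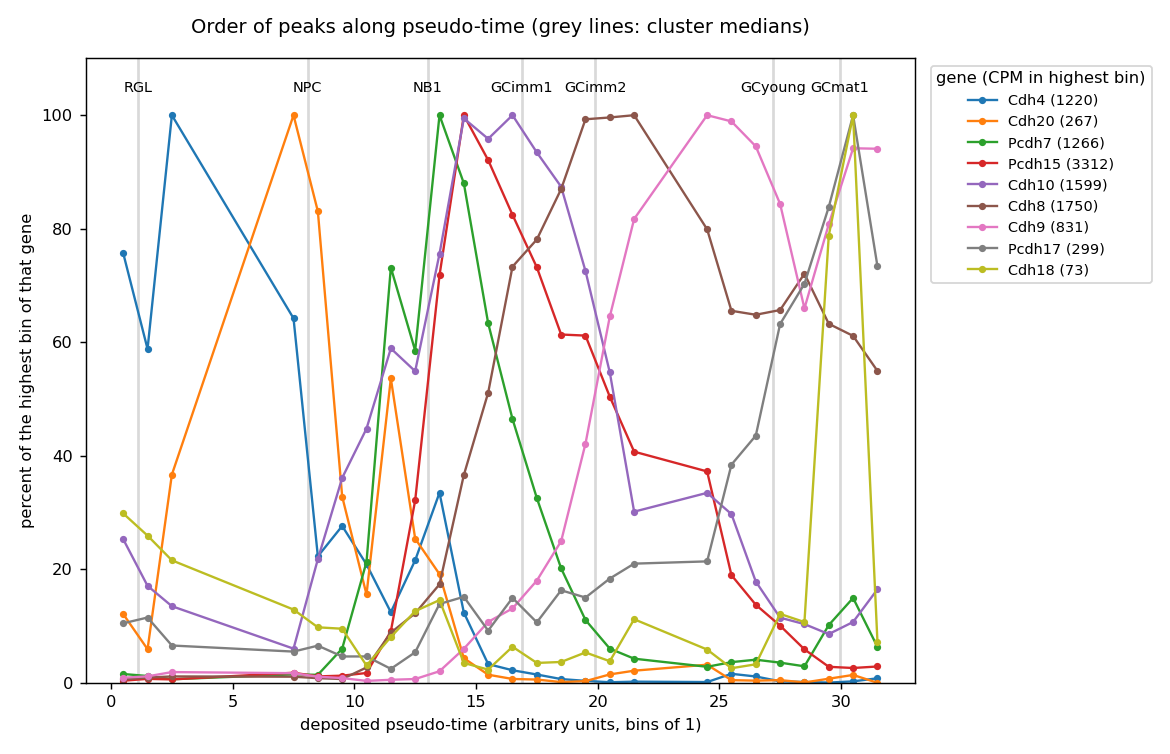
Levels of 9 members along the deposited pseudo-time (horizontal axis, arbitrary units, bins of 1 unit), each as a percent of its own highest bin, which is given in CPM in the key. Grey lines mark the median pseudo-time of clusters apart from NB2. The peaks pass from Cdh4 and Cdh20 through Pcdh7, then Pcdh15 and the nearly level Cdh10, and Cdh8 to Cdh9, Pcdh17 and Cdh18.

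Likeness between members was measured as the Pearson correlation of log2(CPM + 1) over the 9 trajectory clusters, for the 17 members with at least 1000 UMIs. The profiles of Cdh9 and Pcdh19 were most alike (r = 0.988), then Cdh9 and Pcdh20 (r = 0.975) and Cdh9 and Cdh12 (r = 0.956), while Pcdh10 and Cdh12 were most opposed (r = -0.926). The 9 points share libraries and are ordered by maturation, so these are descriptions. Chromosome 15 carries 5 type II members in 10.4 Mb (13028701 to 23474418), and the annotation holds only 1 other protein-coding gene there. Their highest trajectory clusters differed, being RGL for Cdh6, GCyoung for Cdh9, GCimm1 for Cdh10 and GCmat1 for Cdh12 and Cdh18.

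GCmat1 was not uniform in these genes. A deposited pseudo-time was absent for 220 of its 3356 nuclei, and 216 of the 220 came from w8. By the study's methods, GCmat1 nuclei with strong expression of genes of the ventral dentate gyrus were kept out of the pseudo-time, so the split was itself made on expression. The study counts more such nuclei than lack a pseudo-time here, so the sets are not the same. Within w8, Cdh13 stood at 491 CPM in these nuclei (interval 463 to 520) and 139 in the 2711 others (134 to 143). Cdh12 was at 524 and 318, Cdh10 at 326 and 163, Pcdh19 at 234 and 168 and Cdh4 at 12.5 and 2.79. Others were lower in nuclei without a pseudo-time, as Cdh18 at 7.51 against 63.2, Pcdh7 at 75.9 against 156, Pcdh17 at 190 against 276 and Cdh8 at 824 against 1081. Both groups come from 1 library, so the intervals cover counting error and no test was made. Without these nuclei the counts of called members stayed at 5 higher and 4 lower from GCyoung to GCmat1 and at 7 and 4 from GCmat1 to GCmat2.

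**Figure D5:**
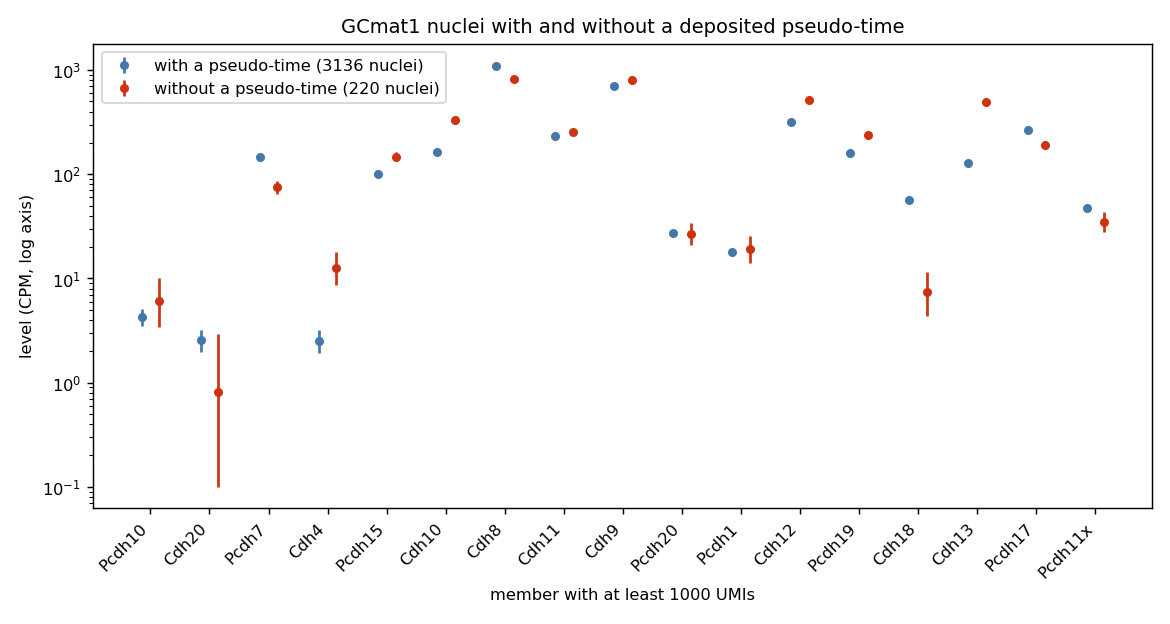
Levels in CPM (logarithmic vertical axis) of the 17 members with at least 1000 UMIs in GCmat1 nuclei with (blue, 3136 nuclei) and without (red, 220 nuclei) a deposited pseudo-time, all libraries pooled, with exact Poisson 95% intervals. Cdh13 stood at 494 CPM without and 129 with a pseudo-time, and Cdh18 at 7.37 and 56.8.

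Among glia, OPC held the highest level of several members. Of the 26, 7 had their highest level of all 13 clusters in OPC: Pcdh15, Pcdh7 (1223 CPM), Pcdh11x (1103), Cdh13 (822), Cdh18 (321), Cdh6 (244) and Cdh22 (44.4). OPC were present in every library, and Pcdh15 ranged there from 4106 to 5338 CPM, Pcdh11x from 1027 to 1204 and Cdh13 from 763 to 882. Each of these was lower in Oligo than in OPC, with Pcdh15 at 150 CPM, Cdh13 at 63.7, Pcdh7 at 806 and Pcdh11x at 492. These glial clusters hold 131 and 45 nuclei and entered no test.

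Of the cytoplasmic partners, 15 of 18 were tested. From NPC to NB1, where 29.3% of all genes were called, 5 rose, among them the alpha-catenin Ctnna3 (log2 change 3.55) and Jup (2.34), which encodes plakoglobin, and 2 fell, the junction protein Plekha7 (-4.55) and the scaffold Magi1 (-1.57). From RGL to GCmat1, where 49.5% of all genes were called, 4 rose and 9 fell, with Plekha7 (-3.77) and Ctnna1 (-3.69) the largest falls and Pkp4 (2.03) and Ctnna2 (1.54) the largest rises. Of the other genes of the cadherin superfamily, 11 of 22 were tested, and 6 rose and 3 fell over the same span. Dsg2 (4.29) and Clstn3 (3.74), which encodes a calsyntenin, rose most, and the planar polarity gene Celsr1 (-6.47) and Fat1 (-5.28) fell most.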

How the data were processed

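Per the labels and the study's methods, the authors counted UMIs per gene and nucleus with STARsolo 2.7.4a on mm10, exons and introns together, without multi-mapped reads, and removed doublets and nuclei of low quality. They also removed a set of w4 nuclei, mostly with male-associated expression, as a possible outlier animal. Of 5459 barcodes of w4, 3831 are in the table used here. These counts were used as deposited. The deposited expression table holds log2 values that the authors made from counts divided by scran size factors, with 1 added, and it supplied the gene list, clusters and pseudo-time. Counts of the 14367 nuclei of that table, of 17046 barcodes, were summed per library and cluster, and the 29 sums of at least 10 nuclei were fitted with edgeR 4.0.16 in R 4.3.3 (quasi-likelihood, TMM, terms for cluster and library, 16 residual degrees of freedom). The fit was tried on simulated counts that held cluster differences and no library effect, so that trial says nothing of the library term. Each library is a pool of mice from 1 week. With the library term in the fit, p-values measure how cluster differences vary between libraries of different weeks. They do not measure a spread between animals or between replicate pools. Levels were compared between clusters only. Members named in a comparison were called, held at least 50 UMIs in the pair of clusters and had 1 direction in every library with both, up to the 8 largest changes each way, and others are named where a count or pattern needed it. Levels were described for members with at least 1000 UMIs and for the leading member of each role, and of each partner list at most the 2 largest changes each way were named. The members, gene lists and tests were chosen with earlier results of these data known. Alternatives were a fit without the library term, RLE factors, DESeq2 1.42.0, sums of at least 5 or 20 nuclei, all genes without a filter, limma 3.58.1 on mean log2 expression, nuclei thinned to 2000 UMIs each (141 were too shallow), other fold thresholds and leaving out each library. The gene that drives the recombinase is not reported here.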

Additional observations from a re-analysis of the deposited data

Results flagged for a closer look

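Cdh9 in RGL stood apart in 1 of the 4 libraries, with 27.9756 CPM in w4 against 1.74, 4.70 and 3.19 in w1, w2 and w8. This was 1 of 34 groups of 4 libraries examined (17 members in RGL and in OPC), and chance flags about 1 group in 20. For Cdh10 the libraries moved in opposite directions from RGL to NPC. It was higher in NPC in w2 (298.8 and 305 CPM, a log2 ratio of 0.0295419 with 1 added) and in w4 (318.8 and 340.8 CPM, 0.0959644) and lower in w1, and this difference between libraries was not tested. Outside the expression table, 9 features of the family had more than 3 UMIs over all nuclei. Pcdh9 had 264020 UMIs and Cdh2 had 41253. The other 7 were rare, with 173 UMIs for Cdh7, 42 for Cdh5, 38 for Cdhr2, 20 for Pcdh18, 15 for Cdh3, 8 for Cdh17 and 4 for Cdh26.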

How the results depend on the processing

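Of 101 calls of members over all comparisons, 59 were made in each of 12 refits of the counts, which leave out limma on mean log2 expression. Of the 89 named changes, limma on mean log2 expression missed the threshold for 52 and reversed 1. The fit without w4 missed it for 17, DESeq2 for 17, no library term for 12, a fold of at least 2 for 11, the fit without w8 for 11, thinning for 10, the fit without w2 for 9, sums of at least 5 nuclei for 5, the fit without w1 for 4 and RLE factors for 3. A fold of at least 1 is looser than the main threshold. All 89 named changes kept their call under it by construction. Counting these, 1178 of 1330 values under 15 alternatives kept direction and side of the threshold for the 89 named changes. Another 151 kept the direction but missed the threshold. The remaining 1 reversed, the change of Pcdh10 from GCyoung to GCmat1 (-0.00182114 by limma on mean log2 expression). By that method the members called numbered 6 from astrocytes to RGL, 2 from RGL to NPC, 6 from NPC to NB1, 1 from NB1 to NB2, 3 from NB1 to GCimm1, 5 from GCimm1 to GCimm2, 3 from GCimm2 to GCyoung, 1 from GCyoung to GCmat1, 3 from GCmat1 to GCmat2 and 9 from RGL to GCmat1. In the same order it called 1.93%, 2.43%, 2.01%, 0.254%, 0.827%, 1.06%, 1.92%, 0.213%, 1.10% and 6.64% of all genes. DESeq2 called 5 from RGL to NPC, 4 from GCyoung to GCmat1 and 6 from GCmat1 to GCmat2 (26.3%, 1.69% and 5.02% of all genes). Without a filter 5 were called from NB1 to NB2 (1.68% of all genes), and thinning left 5 from GCyoung to GCmat1 (2.87%). From GCmat1 to GCmat2, 6 were called without the library term and 7 with sums of at least 5 nuclei (4.97% and 7.14% of all genes). Leaving out a library gave 5 to 10 from RGL to NPC (5 without w1), 4 to 9 from GCyoung to GCmat1 (4 without w4 or w8) and 6 to 12 from GCmat1 to GCmat2 (6 without w4 or w8). It gave 8 to 10 from astrocytes to RGL, 11 to 13 from NPC to NB1, 2 to 4 from NB1 to NB2, 9 to 14 from NB1 to GCimm1, 6 to 9 from GCimm1 to GCimm2, 6 to 10 from GCimm2 to GCyoung and 18 from RGL to GCmat1. Each fit that left out a library also called a smaller share of all genes in most comparisons. The cause of these differences was not tested. With GCmat1 nuclei that have a pseudo-time only, an alternative chosen after seeing the data, all 89 named changes kept their call. Of these, 9 from GCyoung to GCmat1, 11 from GCmat1 to GCmat2 and 13 from RGL to GCmat1 involve GCmat1. The others compare sums that this setting leaves as they were, so their calls were nearly fixed in advance. The highest trajectory cluster was the same for 22 of 26 members by the mean of library levels and for 21 by mean log2 expression. Clusters were compared within libraries by the library term. Weeks have 1 library each and were not compared. Depth limits low members, since 0 UMIs in astrocytes allow up to 8.95 CPM.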
